A study of Drosophila melanogaster with 3 samples.

Results

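Chromosome 4 of Drosophila melanogaster held 279 of the 27271 peaks that the authors called on pooled libraries of the CG12942 fusion protein, and these 279 peaks are described here. They were chosen by position alone, as every pooled peak on chromosome 4 of the dm6 assembly. The study measured chromatin immunoprecipitation followed by sequencing (ChIP-seq) in whole embryos aged 0 to 24 hours, with both sexes pooled. The flies came from a transgenic line that stably expresses CG12942 with green fluorescent protein (eGFP) at its C terminus, and an antibody against the tag was used for precipitation. The 3 samples were biological replicates of this 1 group, each with a biosample of its own, so all values come from embryos with the same transgene. Neither the promoter that drives the fusion nor the cell types that contribute to a whole-embryo signal are given in the sources used here, and no library of another condition was analysed here.

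Chromosome 4, or the dot chromosome, is the smallest autosome of the fly. It is known for chromatin that resembles heterochromatin, with the proteins HP1a and POF and methylation of histone H3 at lysine 9 along most of its length, while many of its genes are nevertheless transcribed. Its genes lie among fragments of transposable elements, and several encode transcription factors and receptors of development and of the nervous system.

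In the reference, chromosome 4 measured 1348131 bp and carried 80 protein-coding genes, or 59.3 per Mb, against 105 per Mb on the 5 large arms of the other chromosomes together, called the other arms below. Annotated transposable elements covered 24.8% of it and 5.74% of the other arms. Its GC content was 35.2%, against 42.2%.

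The strongest chromosome 4 peaks are shown first by the sequence under their summits. Base composition at summits and in flanks 400 bp away is compared with the other arms further below, and the printed stretches do not reach those flanks. Each line gives 40 bases on either side of a summit on the plus strand of dm6 chromosome 4, named by the nearest protein-coding gene, and capitals mark the summit with 5 bases on each side of it. The second strongest peak has its summit in the 3′ UTR of Cals and is not printed.
PlexA, chr4:1027229-1027309: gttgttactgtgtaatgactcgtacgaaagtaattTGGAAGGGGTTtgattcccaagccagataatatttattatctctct
zfh2, chr4:497848-497928: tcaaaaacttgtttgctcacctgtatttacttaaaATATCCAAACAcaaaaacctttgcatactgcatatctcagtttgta
lgs, chr4:424747-424827: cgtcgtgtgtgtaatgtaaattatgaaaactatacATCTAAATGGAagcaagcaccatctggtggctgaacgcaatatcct
Sox102F, chr4:807519-807599: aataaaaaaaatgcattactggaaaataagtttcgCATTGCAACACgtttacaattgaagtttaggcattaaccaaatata
gw, chr4:660097-660177: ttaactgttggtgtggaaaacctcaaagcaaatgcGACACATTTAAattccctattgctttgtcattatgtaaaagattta
RpS3A, chr4:67223-67303: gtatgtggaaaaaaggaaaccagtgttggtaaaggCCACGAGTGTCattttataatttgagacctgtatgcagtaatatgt
Asator, chr4:489472-489552: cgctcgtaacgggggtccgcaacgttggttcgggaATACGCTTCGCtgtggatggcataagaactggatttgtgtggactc
The GC content of these 7 stretches ran from 27.2% at Sox102F to 55.6% at Asator, and 6 of them were below 40%.

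Chromosome 4 held as many peaks per Mb as the other arms in the pooled list but fewer of the strong ones. By their deposited names the pooled and replicate lists hold peaks together with background, and an entry is not by itself a bound site. The pooled list gave 207 peaks per Mb on chromosome 4 and 204 on the other arms. The authors' optimal list, by its deposited name thresholded by the irreproducible discovery rate (IDR), held 18 chromosome 4 peaks among 3844. These were 6.45% of the chromosome 4 pooled peaks, against 14.1% of pooled peaks in the whole list. The optimal list proved to be exactly the 3844 strongest pooled peaks by the authors' signal. Membership therefore does not by itself mean that the replicates ranked a peak alike. To match it in number, the strongest 3844 peaks of each replicate list are called strong below. By this measure chromosome 4 had 13.4 strong peaks per Mb in the pooled list and the other arms had 28.9.

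Replicate 1 stood apart on chromosome 4 before any comparison was made. It listed 394 peaks there among 30000, replicate 2 listed 306 among 30000 and replicate 3 listed 220 among 27870. Of these, 11 were strong in replicate 1, 23 in replicate 2 and 22 in replicate 3. Replicate 1 therefore listed the most chromosome 4 peaks and the fewest strong ones. This was not particular to chromosome 4, since arm X showed the same pattern. X had 5291, 4720 and 4363 listed peaks and 628, 695 and 724 strong ones in replicates 1, 2 and 3. Arms 2L, 2R, 3L and 3R did not show it. The libraries' depth is unknown, since no read totals are given in the sources used here, and the part of depth in this difference was not tested.

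Strong peaks were sparser on chromosome 4 than on the other arms in every replicate. The density was 8.16 strong peaks per Mb in replicate 1, 17.1 in replicate 2 and 16.3 in replicate 3, a mean of 13.8 ± 4.94 (SD, n = 3). On the other arms it was 28.9 ± 0.0502 per Mb (SD, n = 3). The difference of −15.0 ± 4.99 per Mb was lower on chromosome 4 in 3 of 3 replicates (exact sign permutation test, two-sided, p = 0.25, the smallest that 3 replicates allow). Counted per 100 protein-coding genes, chromosome 4 had 23.3 strong peaks and the other arms 27.6, and the difference of −4.26 ± 8.37 (SD, n = 3) was smaller than the spread between replicates. The direction per gene was not shared by the replicates, and the part of gene density in the gap per Mb was not tested.

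From the strongest 4000 peaks on, the deficit in the pooled list shrank as weaker peaks were counted. Among the strongest 1000 pooled peaks, 5 lay on chromosome 4 and the density there was 0.494 of that on the other arms. The ratio was 0.395 for the strongest 2000, with 8 peaks, and 0.494 for the strongest 4000. It then was 0.653 for the strongest 10000, 0.863 for the strongest 20000 and 1.02 for the whole pooled list. Over the whole lists it was 1.31 in replicate 1, 1.01 in replicate 2 and 0.782 in replicate 3, so the replicates did not share a direction once every peak was counted.

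**Figure D1:**
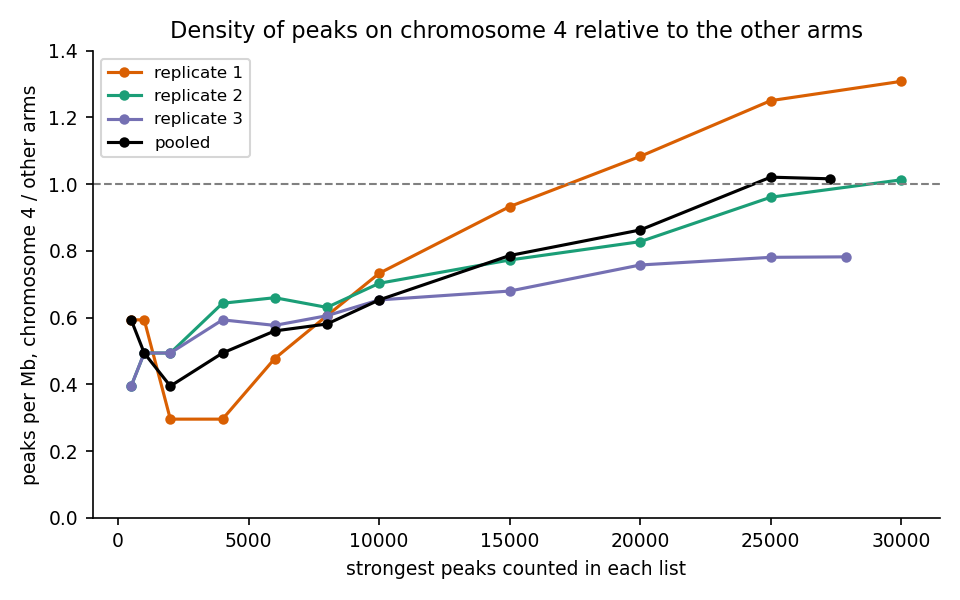
Ratio of peaks per Mb on chromosome 4 to that on the other arms (vertical axis), against the number of strongest peaks counted in each list (horizontal axis), for the pooled list and the 3 replicate lists. The dashed line marks equal density. All 4 curves lie below it up to 15000 peaks, and at the full list replicate 1 ends at 1.31 and replicate 3 at 0.782.

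Peaks on chromosome 4 were also weaker when ranked within their own list. Signal was turned into a percentile of the list, in which 100 is the strongest, because its scale differs between lists. The median chromosome 4 peak stood at percentile 37.4 in replicate 1, 37.9 in replicate 2 and 44.6 in replicate 3, while the other arms stood at 50.1 ± 0.0654 (SD, n = 3). The other arms hold nearly all peaks of each list, so their median lies near the middle by construction. The difference was −10.2 ± 4.08 points and lower in 3 of 3 replicates (exact sign permutation test, two-sided, p = 0.25, the smallest possible). Among promoter peaks alone it was −3.43 ± 4.13 points, within the spread between replicates, and among other peaks −10.6 ± 2.22 points. The strongest chromosome 4 peak ranked 334 in the pooled list, with a signal of 306 against a maximum of 1897 on the other arms.

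The 2 highest chromosome 4 peaks lay at PlexA and Cals. The first (chr4:1027155-1027420) had its summit 168 bp upstream of the transcription start site (TSS) of PlexA, which encodes a semaphorin receptor in axon guidance. Its pooled signal was 306, and it had signals of 97.0, 89.3 and 113 and ranks of 457, 370 and 315 in replicates 1, 2 and 3. It was the strongest promoter peak of the chromosome and ranked similarly in the 3 lists. Cals, which encodes calsyntenin, a cadherin-related membrane protein of synapses, held the second (chr4:1113245-1113463, pooled signal 279), 9640 bp downstream of the TSS in its 3′ UTR. Ranks there were 754, 321 and 423.

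The next peaks lay nearest to zfh2, lgs, Sox102F and gw. An intergenic peak 3922 bp upstream of the nearest TSS of zfh2, a zinc finger and homeodomain factor, had a pooled signal of 268 (chr4:497810-498001). Replicate 1 ranked it 190 with a signal of 142, replicate 2 ranked it 685 with 66.7, and replicate 3 ranked it 1501 with 51.3. Replicate 1 was high there, unlike at most strong chromosome 4 peaks. Another intergenic peak (chr4:424703-424918, signal 249) lay 19124 bp downstream of the TSS of lgs (legless), a cofactor of Wingless signalling, and ranked 419, 637 and 657. Sox102F, a SoxD-type HMG box factor, had an upstream promoter peak 212 bp from a TSS (chr4:807514-807622, signal 236) with ranks of 661, 880 and 566. A second, overlapping call 412 bp upstream of it (chr4:807557-807960) had a signal of 98.0. For this second call the nearest summits ranked 3319, 880 and 27058, and replicate 2 offered the same summit to both calls, so the pair may be read as 1 site. The peak at gw (gawky, the GW182 protein of microRNA-mediated silencing) lay 154 bp upstream of a TSS (chr4:659935-660338, signal 181) and ranked 765, 1270 and 1020.

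The remaining peaks of the 12 strongest were at most 140 in pooled signal. At RpS3A, a ribosomal protein gene, the summit lay 56 bp upstream of the TSS (chr4:67061-67464, signal 140), and its ranks of 5939, 1265 and 967 left replicate 1 outside the strong peaks. Asator, a protein kinase gene, had an intergenic summit 518 bp upstream of a TSS (chr4:489310-489713, signal 131), just beyond the 500 bp used for promoters, with ranks of 2342, 1402 and 1831. The fuss peak (a Ski and Sno family gene) was 4498 bp upstream of the nearest TSS (chr4:982785-983188, signal 109) and ranked 3005, 2158 and 1967. Gyf, which encodes a GYF-domain protein, had a promoter summit 99 bp upstream (chr4:866922-867325, signal 95.2) with ranks of 7676, 1275 and 3613, weakest in replicate 1. CaMKII, the calcium and calmodulin dependent kinase, had one 86 bp upstream (chr4:1051262-1051665, signal 93.8) with ranks of 3940, 2539 and 3756, just outside the strong peaks in replicate 1. The other optimal peaks, with signals from 82.3 to 92.7, lay at pho (the DNA-binding Polycomb group protein Pleiohomeotic), anne, a second site of Asator 545 bp upstream of a TSS, Rnf11 (a RING finger gene), Crk (an SH2 and SH3 adaptor) and CG46466.

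All 18 optimal chromosome 4 peaks had a summit within 200 bp in each replicate list, and 10 of them (55.6%) were matched among the strong peaks of all 3 replicates, against 63.5% of all optimal peaks. The 10 include the second Sox102F call, whose nearest summit in replicate 3 ranked 27058. In replicate 3 it counted as strong, here and below, only through a stronger summit within 200 bp. Another 6 were strong in 2 replicates, Crk in 1 (replicate 3) and Rnf11 in 0. Replicate 1 held 10 of the 18 among its strong peaks, replicate 2 held 16 and replicate 3 held 17. With replicates 2 and 3 alone, a count made after the data were seen, 16 of 18 (88.9%) were strong in both, against 74.8% of optimal peaks on the other arms. The side of the other arms on which chromosome 4 fell was therefore set by replicate 1.

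The optimal chromosome 4 peaks that replicate 1 lacked among its strong peaks were all at promoters. Its strong peaks matched 4 of the 12 optimal promoter peaks of chromosome 4 and 6 of the 6 outside promoters, namely those at Cals, zfh2, lgs, fuss and Asator. Replicate 2 matched 10 of 12 and 6 of 6, and replicate 3 matched 11 of 12, with the second Sox102F call counted, and 6 of 6. On the other arms replicate 1 matched 1682 of 1996 promoter peaks and 1499 of 1830 others, 2 shares that lay near each other. Of the 12 chromosome 4 promoter peaks, however, 7 were among the weakest 25% of the optimal list, where replicate 1 matched 0 of 7 on chromosome 4 and 231 of 419 (55.1%) on the other arms. The promoters it missed were RpS3A, Gyf, CaMKII, pho, anne, Rnf11, Crk and CG46466, which it ranked from 3940 to 9380. In the pooled list the 7 weak promoter peaks ranked from 2922 to 3625. Outside promoters the pooled ranks were 415, 462, 553, 1775 and 2367, and 3316 at the second Asator site. Position at a promoter and peak strength thus cannot be told apart here. The parts of peak strength and of list quality were not tested.

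**Figure D2:**
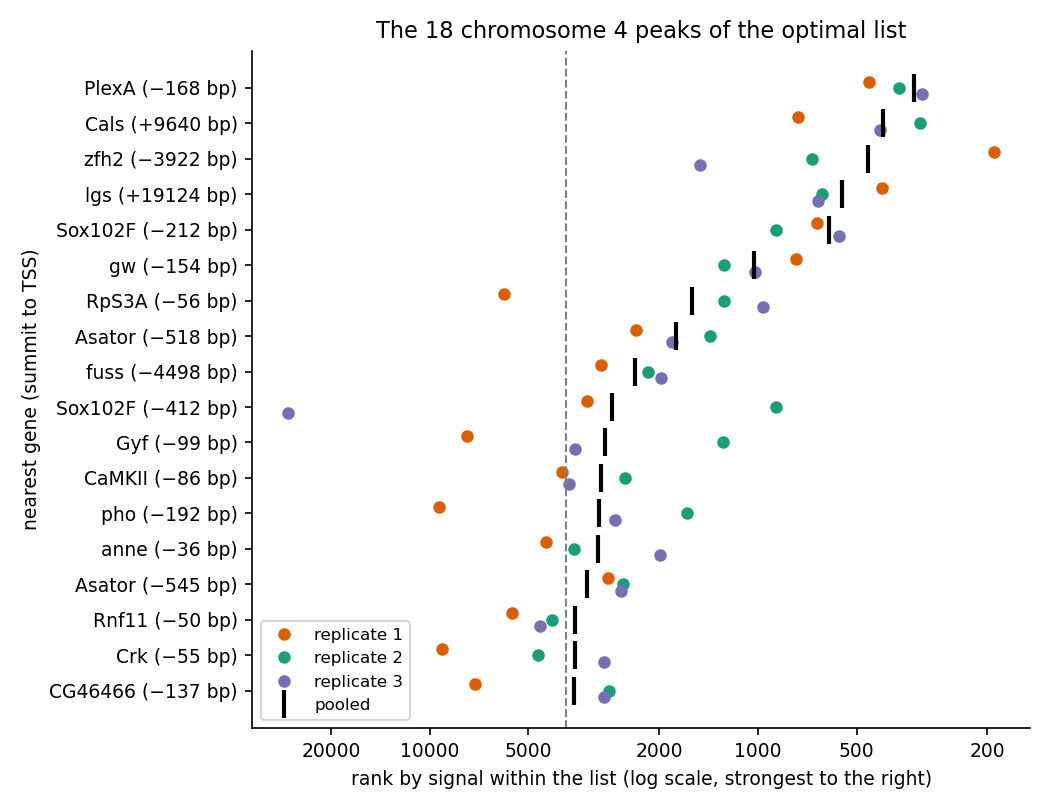
Rank of each of the 18 optimal chromosome 4 peaks (rows, with the nearest gene and the distance from summit to TSS, negative upstream) in the pooled list and in the nearest summit of each replicate list, on a log scale with the strongest to the right. The dashed line marks rank 3844. Replicate 1 lies to the left of the line at 8 promoter peaks, while the 6 peaks outside promoters lie to its right in every replicate.

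Matching over the whole pooled list was lower on chromosome 4. Of the 279 peaks, 52 (18.6%) had a summit within 200 bp in all 3 replicate lists, against 31.6% of all pooled peaks, and 97 had one in 2 lists, 15 in 0 and the rest in 1. Strong peaks of replicates 1, 2 and 3 lay within 200 bp of 4.30%, 9.68% and 9.32% of the 279, a mean of 7.77% ± 3.01 (SD, n = 3), against 15.3% ± 0.0889 on the other arms. The difference was −7.52 ± 2.95 points, lower in 3 of 3 replicates (exact sign permutation test, two-sided, p = 0.25, the smallest possible). Among optimal peaks alone it was −4.71 ± 19.9 points and had no common direction. The pooled list was called on the same reads, so this describes how the replicates contributed to it. The share of pooled peaks near strong ones also follows largely from the density of strong peaks and is no separate support. Its ratios of chromosome 4 to the other arms were 0.283, 0.634 and 0.606 in replicates 1, 2 and 3. Those of the density were 0.282, 0.592 and 0.566. Among the 52 peaks listed by all 3, replicate 1 gave the lowest percentile at 28 (53.8%), against 35.9% of such peaks on the other arms.

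The widest disagreement between replicates, by the range of percentiles over peaks listed in all 3, was at the second Sox102F call (94.2 points). Next came an intronic peak of PlexA in a Tc1 element (76.9 points, pooled rank 24966), the promoter peak of Arl4, an Arf-like GTPase gene (61.1 points), and a second peak of the same PlexA intron, also in a Tc1 element (60.9 points, pooled rank 6229). Replicate 2 ranked the Arl4 peak 2789 and replicate 3 ranked it 2804, whereas replicate 1 ranked it 21108. At the PlexA intron 1 replicate 2 summit was the nearest to both pooled peaks.

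Most chromosome 4 genes had a pooled promoter peak, and few had a strong one. A summit lay within 500 bp of a TSS for 63 of the 80 protein-coding genes (78.8%), against 51% of all protein-coding genes. The whole replicate lists gave 85.0%, 67.5% and 63.8% on chromosome 4, above 53.9%, 49.6% and 45.4% on the other arms. For the optimal list the count was 12 of 80 (15.0%), against 19.2% of all genes. Strong promoter peaks covered 6.25%, 18.8% and 17.5% of chromosome 4 genes in replicates 1, 2 and 3, and 18.9% ± 0.260 (SD, n = 3) on the other arms. The difference of −4.74 ± 6.70 points was smaller than the spread between replicates (exact sign permutation test, two-sided, p = 0.25, the smallest possible), and it was −0.876 without replicate 1. With the strongest 10000 peaks of each list it turned to 12.7 ± 4.05 points in favour of chromosome 4, higher in 3 of 3 replicates. Chromosome 4 had 142 TSS positions for its 80 genes and the other arms 19110 for 13865, so its genes offered more start sites each, and the part of this was not tested.

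Transcription and chromatin regulators had a pooled promoter peak at 14 of 19 genes and an optimal one at 3, Sox102F, gw and pho, of which gw acts in RNA silencing. Among the others, lgs (signal 75.4), Hcf (host cell factor, 73.4) and ey (eyeless, a Pax6 factor of eye development, 47.2) stood highest. The 5 without a pooled promoter peak were NfI, fd102C, onecut, sv and toy, named here for being without one. Of these, fd102C had none in any replicate list either, while toy had one in replicates 1 and 3, NfI in replicates 2 and 3, onecut in replicate 1 and sv in replicate 2. Signalling and axon guidance genes had 12 of 14 in the pooled list and 3 in the optimal list. These were PlexA, Crk and Slip1, the last sharing the CG46466 summit. PlexB, the other plexin gene, had the strongest chromosome 4 peak outside the optimal list (signal 78.6, rank 3858), and PIP4K and Dyrk3 followed with 45.6 and 42.9, the last from a summit that also lies at the promoter of Cadps. CaMKI and the TGF-beta family ligand gene mav had no pooled promoter peak, but replicate 1 listed one at both and replicate 3 one at CaMKI.

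Genes of synapses, channels and transporters had a promoter peak at 6 of 11 in the pooled list and at 0 in the optimal list, and at 9, 5 and 5 of 11 in the whole lists of replicates 1, 2 and 3. The 6 were Arl4 (signal 77.4), Zip102B (a zinc transporter, 60.9), Cadps (a factor of vesicle release, 42.9 at the summit shared with Dyrk3), unc-13 (a factor of vesicle priming, 31.6), mGluR (a glutamate receptor, 21.98) and Cals (21.4). Ekar, Gat, Kif3C, PMCA and Syt7 had none in the pooled list, but all 3 replicate lists held one at PMCA, replicates 1 and 2 at Gat, and replicate 1 at Ekar and Kif3C. The Cals promoter peak was weak although the second strongest peak of the chromosome lay in the same gene. All 5 genes of translation, mitochondria and proteolysis had a pooled promoter peak, RpS3A in the optimal list, and then eIF4G1 (a scaffold of translation initiation, 68.1), Rad23 (62.4), ATPsynbeta (60.2, at a summit 422 bp from its TSS and 87 bp from that of CG11076) and ND-49 (37.2). The 3 muscle and cytoskeleton genes Zyx (60.1, at a summit shared with apolpp), bt (28.0) and Ank (22.1) had one as well. Counted over replicates, 2 transcription regulators (Sox102F and gw) and 1 signalling gene (PlexA) had a strong promoter peak in all 3. These lists were drawn up with earlier results known and were not tested, and their counts stand beside 78.8% and 15.0% for all genes of the chromosome.

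**Figure D3:**
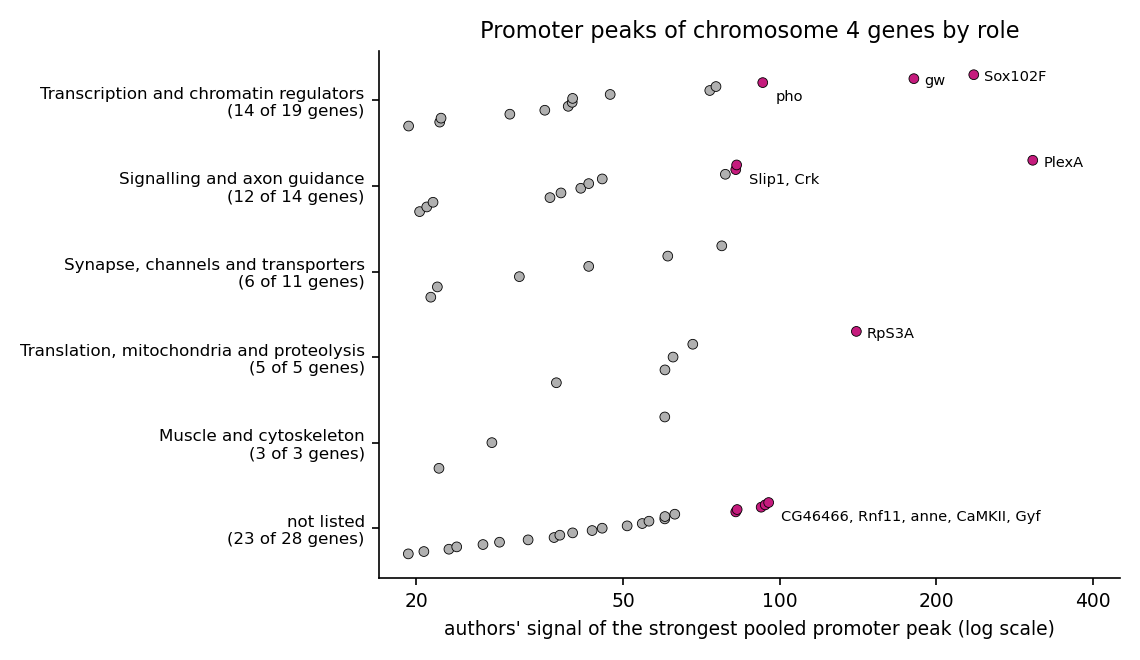
Signal given by the authors to the strongest pooled promoter peak of each chromosome 4 gene that had one (horizontal axis, log scale), by gene list (rows, with the number of genes with a peak of the number on the chromosome). Coloured points are optimal peaks, named beside them, and grey points are the other pooled peaks. PlexA, Sox102F, gw and RpS3A stand above 100, and the synapse list reaches 77.4.

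Strong chromosome 4 summits lay at promoters at least as often as those elsewhere. Of the 18 optimal peaks 12 (66.7%) had a promoter summit, against 52.2% of all optimal peaks. All 12 were upstream of the TSS, as were 1728 of 1996 (86.6%) on the other arms. Their median distance was 118 bp upstream, close to the 106 bp upstream on the other arms. The share of strong peaks was 54.5%, 73.9% and 63.6% in the replicates and 52.2% ± 0.849 (SD, n = 3) on the other arms. The difference of 11.8 ± 9.48 points was positive in 3 of 3 replicates (exact sign permutation test, two-sided, p = 0.25, the smallest possible), and 7.20 without replicate 2. Among the strongest 1000 peaks, with 5 or 6 on chromosome 4 per replicate, it reversed to −12.7 ± 10.8 points. In the whole pooled list 83 of the 279 (29.7%) were at promoters, against 28.5% of all pooled peaks, and the other classes were 89 intronic, 38 coding, 36 intergenic, 18 in 3′ UTRs, 10 in noncoding exons and 5 in 5′ UTRs. Coding sequence held 13.6% of chromosome 4 summits and 5.36% of those on the other arms, and intergenic sequence 12.9% and 19.95%. Of the 38 coding summits, 0 were optimal, and on the other arms 5 of 1447 were.

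The share of promoters by strength differed between the lists. In the pooled list it was 66.7% for the strong chromosome 4 peaks and again 66.7% for the 48 ranked between them and 10000, where the other arms had 37.2%. It was 17.6% for the 108 ranked to 20000 and 19.05% for the 105 below. In replicate 1 the shares in the same classes were 54.5%, 58.7%, 21.5% and 16.5%. They were 73.9%, 37.5%, 17.7% and 11.5% in replicate 2 and 63.6%, 50% (22 of 44), 16.1% and 16.4% in replicate 3. The level share over the first 2 classes was thus not seen in replicate 2. The first 66 pooled peaks of the chromosome held 44 of its 83 promoter summits. Head-to-head genes, whose TSS lies within 500 bp of an oppositely directed one, made up 14 of the 80 genes on chromosome 4 and 27.4% of genes on the other arms. On chromosome 4 an optimal promoter peak was found at 2 of these 14 (14.3%) and at 10 of the 66 other genes (15.2%). On the other arms the shares were 40.6% and 11.1%. The 2 head-to-head genes with an optimal peak, CG46466 and Slip1, shared a single summit. In the pooled list a promoter peak was found at 13 of the 14 (92.9%) and at 50 of the 66 others (75.8%). The pooled shares on the other arms were 76.2% and 41.2%.

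Transposable elements held weak chromosome 4 peaks and none of the strong ones. A summit lay in an annotated element for 35 of the 279 (12.5%), against 0.627% of all pooled peaks. On the other arms the share was 0.504%. Both were below the share of sequence in elements, 24.8% on chromosome 4 and 5.74% on the other arms. None of the 18 optimal summits was in an element, against 6 of 3826 (0.157%) on the other arms. Of the next 48, 3 were, and 32 ranked below 10000. The 32 were 20 of the 108 peaks ranked to 20000 and 12 of the 105 below. None of the 35 was matched by a strong peak of any replicate, and 3 (8.57%) were listed in all 3 replicates. On the other arms 123 of 136 element summits had no strong match, and 32 (23.5%) were listed in all 3. INE-1, the most abundant element of the chromosome with 344 annotated copies, held 19 of the 35, the 1360 element held 7 and Tc1 held 3. Whether reads can be placed uniquely in each copy was not measured.

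**Figure D4:**
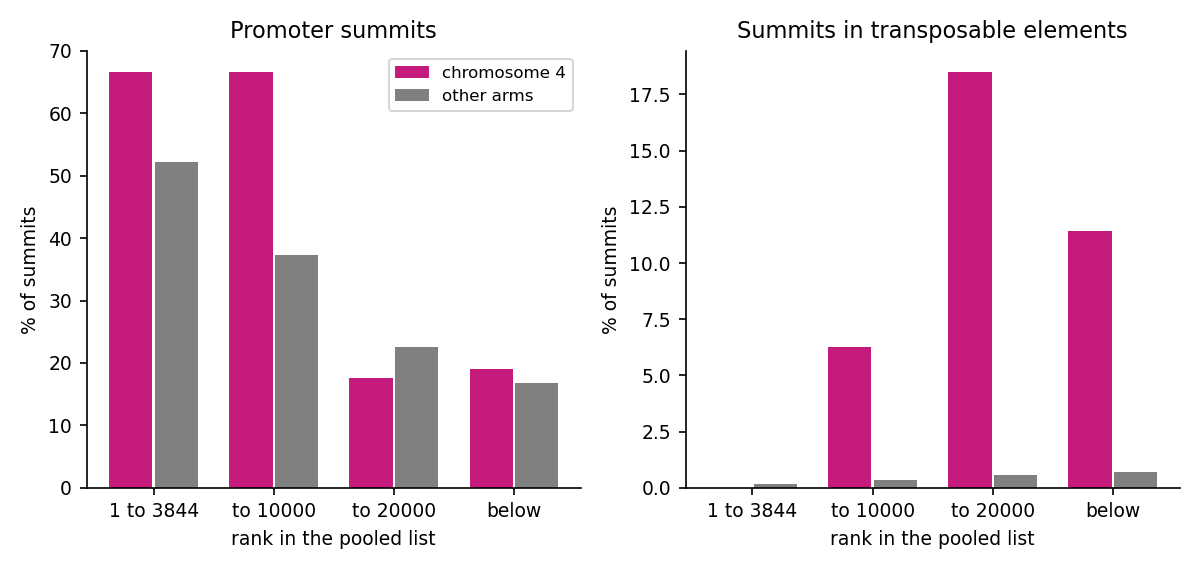
Percent of pooled summits at promoters (left) and in annotated transposable elements (right) by rank in the pooled list, for chromosome 4 and the other arms. On chromosome 4 the promoter share is 66.7% in both of the first 2 rank classes and then 17.6% and 19.05%. Among the strong peaks the element share is 0% there, against 0.157% on the other arms.

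Peaks were spread along the assembled chromosome up to its repeat-rich end. Between 9 and 30 pooled summits lay in each successive 100 kb of the first 1300000 bp, with a median gap of 2377 bp between neighbours. The last stretch (chr4:1300001-1348131), of which 95.4% is annotated elements and which holds 0 TSSs, had 0 peaks in the pooled list and in each replicate list. The richest interval for optimal peaks was chr4:400001-500000, with 4, at lgs, zfh2 and both Asator sites. For scale, the other arms were divided into 95 windows of the length of chromosome 4, a description chosen after the data were seen. They held a median of 42 optimal peaks, and 13 of them held fewer than 18. The 8 windows with at least 10% of their sequence in annotated elements held from 0 to 43, with a median of 6.5, and had a median of 49.5 genes. The 3 windows with 60 to 100 genes held 21, 51 and 54. The window with 21 had 88 genes and 28.3% of its sequence in elements. Those with 51 and 54 had 98 and 93 genes and 3.83% and 6.64% in elements.

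Base composition around the strong summits differed between chromosome 4 and the other arms in each replicate. Elsewhere the optimal summits lay in dips of GC content, where GC averaged 34.1% over the 50 bp on each side, while windows as wide at a distance of 400 bp averaged 43.8%. On chromosome 4 the 18 optimal summits had 34.9% ± 8.13 (SD over peaks) and their flanks 32.9% ± 6.57. The summits were thus about as AT-rich as elsewhere, but the surrounding sequence was too. Summits were lower in GC than their flank at 7 of the 18 peaks (38.9%), against 75.5% of optimal peaks on the other arms. Summit minus flank among strong peaks was 0.450, 1.68 and 2.75 points on chromosome 4 in replicates 1, 2 and 3, and −8.69, −9.06 and −10.1 points on the other arms. The difference between the regions was 10.9 ± 1.86 points (SD, n = 3), with chromosome 4 higher in 3 of 3 replicates, given as a description with no test. With the flank taken on the other side of the summit it was 12.3 ± 0.616.

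**Figure D5:**
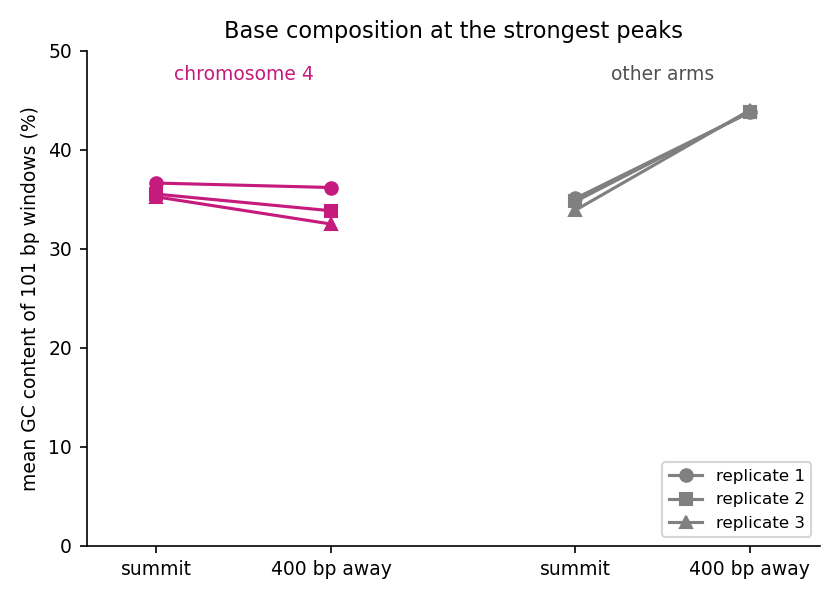
Mean GC content (vertical axis, %) of windows reaching 50 bp on each side of the summit or of a point 400 bp away, for the strong peaks of each replicate (symbols) on chromosome 4 and on the other arms. Summits lie between 33.9% and 36.6% in both regions, and flanks between 32.5% and 36.2% on chromosome 4 and near 44% on the other arms.

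Short words of A and T that were more frequent at summits than in flanks elsewhere were about as frequent in flanks as at summits on chromosome 4. The 5 words of 7 letters most over-represented at optimal summits of the other arms were searched on both strands, within 50 bp of a summit and in the flank. TAAAATA was at 12.6% of those optimal summits and in 4.29% of their flanks, a contrast that the choice of words fixes. At all pooled summits of the other arms the shares were 7.93% and 5.22%. At the 279 chromosome 4 summits it was found in 33 windows and in 30 flanks, and 11.3% of chromosome 4 upstream windows held it against 9.03% elsewhere. Of the others, TTTAAAA was at 32 chromosome 4 summits and in 37 flanks, against 8.30% and 5.76% on the other arms, with 8.45% and 11.5% of upstream windows. TATTAAA was at 17 and in 22, against 6.35% and 4.42%, with 6.34% and 6.94% of upstream windows. These counts show no excess at the summits. TTAAAAA was at 44 and in 44, against 9.32% and 6.71%, with 11.97% and 11.9% of upstream windows. AATTTAA was at 30 and in 30, against 7.57% and 5.89%, with 7.04% and 10.1%. Upstream windows are of the same width and are centred 100 bp upstream of each TSS. At the 18 optimal chromosome 4 summits the 5 words, in the order given, were at 1, 0, 0, 2 and 2 summits and in 1, 0, 0, 2 and 3 flanks. The words overlap one another, so their counts are not independent.

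Words known from promoters and insulators were mostly as frequent in flanks as at summits on chromosome 4. The DRE, TATCGATA, was near 7 of the 279 summits (2.51%) and in 5 flanks, and near 0 of the 18 optimal summits. On the other arms it was near 270 of 26992 pooled summits (1.00%) and in 75 flanks. Among upstream windows, 1.41% held it on chromosome 4 and 2.28% elsewhere. The shorter CGATA, the core bound by BEAF-32, which lies within the DRE, was near 52 chromosome 4 summits (18.6%) and in 46 flanks, against 13.5% of summits and 11.4% of flanks elsewhere, and 20.4% of upstream windows on chromosome 4 and 19.5% elsewhere held it. GAGAG was near 22 summits and in 21 flanks, against 11.5% of summits and 12.5% of flanks elsewhere. Upstream windows held it in 7.75% of cases on chromosome 4 and in 16.0% elsewhere. TATAAA was near 60 summits and in 77 flanks, against 15.5% and 11.6% elsewhere, with 16.9% and 16.2% of upstream windows. CACACACA was near 0 of 279 summits and in 5 flanks, against 2.15% of summits and 3.25% of flanks on the other arms, and 2.82% and 2.402% of upstream windows held it. Other searched words (the motif 1 core GGTCACAC, CAGCTG and the initiator TCAGT) were near 1, 3 and 47 summits and in 1, 5 and 40 flanks. On the other arms they were near 0.856%, 4.47% and 17.3% of summits and in 0.241%, 4.45% and 15.1% of flanks. Upstream windows held them in 1.41%, 2.11% and 12.7% of cases on chromosome 4 and in 1.24%, 5.55% and 16.4% elsewhere.

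The median width of strong peaks was the same on chromosome 4 and elsewhere in each replicate (404, 384 and 380 bp), but most peaks of a list have one width, so the median can hardly differ. The mean width differed by 0.674 ± 22.2 bp (SD, n = 3), with both signs among the replicates. Chromosome 4 held 1.00% of pooled and 0.472% of optimal peaks on dm3, against 1.02% and 0.468% on dm6.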

How the data were processed

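The authors deposited peak lists in narrowPeak format: 3 replicate lists, a pooled and an optimal list, with versions on dm6 and on dm3. Per the listings deposited beside the lists, each replicate list came from 1 library and a control alignment, and the pooled list from the alignments of all 3. The names of the aligner and peak caller are not given here by any source used. By their deposited names, the pooled and replicate lists hold peaks and background as input for IDR. The authors' deposited signal value, whose scale depends on depth, was used to rank peaks within a list. The deposited column of −log10 q values served in an alternative ranking. The depth of the libraries is unknown.

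Peaks were set against the RefSeq release 6 sequence (dm6) and Ensembl release 115 annotation of the same assembly, 1-based. Replicate differences, chromosome 4 minus the other 5 arms (2L, 2R, 3L, 3R and X), were tested with an exact sign permutation test over the 3 replicates. The p-values rest on these 3 samples alone. Where all 3 differences share a sign, p is 0.25 whatever their spread. Matching used summits within 200 bp, and promoters 500 bp of a protein-coding TSS. Classes were assigned in the order promoter, 5′ UTR, coding, 3′ UTR, noncoding exon, intron, intergenic. Named peaks were every optimal chromosome 4 peak, the 12 strongest pooled peaks, up to 6 bound genes of each of 5 gene lists and the 4 peaks with the widest range of percentiles between replicates. Of the listed symbols, 1 (Thd1) was not placed on chromosome 4 by the annotation and was left out. Members, lists and tests were chosen with earlier results of these data known. GC content was planned as a description without a test, and its difference over replicates was added after the data were seen.

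On simulated lists of 27271 peaks, a planted density ratio of 1 was recovered as 1.08 and one of 0.5 as 0.48. Python 3.11.15, numpy 2.4.6, pandas 2.3.3, scipy 1.17.1 and matplotlib 3.10.9 were used. Neither signal tracks nor the control were analysed here.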

Additional observations from a re-analysis of the deposited data

How the results depend on the processing

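Since the exact sign permutation test over 3 replicates cannot go below 0.25, 9 results were followed by size and sign under 55 alternatives. In 46 the sign of the value was kept, taken on the mean over replicates except for the count of optimal peaks. The value there moved by less than 1 SD between replicates, or not at all for the median width. For optimal peaks strong in every replicate the count changed by less than 1.5 times. Single replicates could still differ in sign among the 46. With a promoter window of 250 bp the promoter share differed by −7.07, 17.4 and 17.9 points in replicates 1, 2 and 3. For matching of optimal peaks alone the differences were −27.6, 4.68 and 8.77 points. No paired analysis was possible because the study has 1 group, so that no groups share replicate numbers, while the regions were compared within each replicate. The density of strong peaks per Mb (−15.0) was −3.55 with the strongest 1000 peaks, −22.8 with the strongest 10000, −4.26 per 100 genes, and reversed to 8.79 ± 57.4 with every peak. The percentile difference was −3.43 for promoter peaks alone. The promoter share reversed to −12.7 points with the strongest 1000 peaks, and the share of genes with a strong promoter peak to 12.7 points with the strongest 10000. The mean width differed by 0.674 ± 22.2 bp where the median differed by 0. The causes of these shifts were not tested, apart from the smaller number of peaks per Mb that a shorter list gives by construction. Leaving out 1 replicate gave a density difference of −16.6 to −12.1, a percentile difference of −12.5 to −8.83, a promoter share difference of 7.20 to 16.7, a gene share difference of −6.88 to −0.876, a difference in matched pooled peaks of −8.50 to −5.82, a GC difference of 9.94 to 11.8 and a width difference of 0. The share of optimal peaks strong in every replicate differed by −7.98 points, and by −16.1 to 14.1 with 1 replicate left out, the sign changing without replicate 1. The 3 replicates, 18 optimal peaks and unknown depth limit how small a difference could be seen.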
